A study of Mus musculus with 4 samples.

Results

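The genes that make, break down, bind and sense retinoic acid were followed in cochlear ducts of mouse embryos in which *Tbx2* had been removed from the *Sox2*-expressing cells. The group comprises 10 of the 29924 gene names on the array, chosen by name: *Aldh1a1*, *Aldh1a2* and *Aldh1a3*, *Cyp26a1*, *Cyp26b1* and *Cyp26c1*, *Crabp1* and *Crabp2*, *Rarb* and *Rarg*. They are read by 12 of its 39429 probes, 1 probe each except for *Rarb*, which has 3. Each of 4 Agilent arrays compared, in 2 colours, RNA from a pool of *Sox2-Tbx2LOF* ducts with RNA from a pool of control ducts. Arrays 1 and 2 held female pools and arrays 3 and 4 male pools, which gives 4 mutant and 4 control pools, each made of the ducts of many embryos. Each sex had 1 array with the mutant RNA in Cy5 (arrays 1 and 3) and 1 with it in Cy3 (arrays 2 and 4).

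Mutant embryos were Sox2(creERT2);Tbx2(fl/fl), and the genotype of the controls is given as Tbx2(fl/n.d.), which leaves their second *Tbx2* allele unnamed. The methods describe the controls as lacking the cre. Both groups were of the NMRI strain and came from dams that had received 4 mg tamoxifen by mouth at E12.5, so that the controls carry the drug treatment as well, and the ducts were collected at E14.5. The methods also place an R26mTmG reporter, which switches its fluorescent protein after recombination, in the crosses that gave the mutants. Littermates without the cre from these crosses would carry the reporter too. CreERT2 is a recombinase that enters the nucleus only in the presence of tamoxifen, and here it is made from the *Sox2* locus. By the methods only the mutants carried it, so effects of CreERT2 itself and of the loss of *Tbx2* cannot be told apart. Whole ducts were measured after removal of the spiral ganglion, so that cells which never expressed *Sox2* contribute to every value. In such bulk tissue, a lower level from fewer cells of a type and one from less RNA per cell cannot be told apart.

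Retinoic acid is made from vitamin A by oxidation of retinaldehyde, the step of the ALDH1A enzymes, and it is removed by the CYP26 enzymes, members of the cytochrome P450 family that hydroxylate it. Inside the cell it is carried by the binding proteins CRABP1 and CRABP2, and it acts on the nuclear receptors RARA, RARB and RARG, which sit on DNA together with RXR partners. In the embryo, neighbouring zones of synthesis and breakdown set where retinoic acid can act, and both excess and lack of it disturb the growth and patterning of the inner ear.

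*Rarb* and *Cyp26a1* are classical direct targets of the receptors and so serve as readouts of the pathway. The 100 bases before the start sites of these genes are shown because they hold the repeat that these receptors are known to bind, next to those of *Cyp26b1*, the member with the lowest mutant over control ratio. The sequences are those of RefSeq on GRCm38.p6 and run 5′ to 3′ along the strand of each gene. Capitals mark direct repeat 5, searched as the core GTTCA or GGTCA, 6 further bases of any kind and again GTTCA or GGTCA, on both strands.
*Rarb*, chr14:16575477-16575576, minus strand: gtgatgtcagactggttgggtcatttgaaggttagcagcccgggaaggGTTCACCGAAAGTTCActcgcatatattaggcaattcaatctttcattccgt
*Cyp26a1*, chr19:37697708-37697807, plus strand: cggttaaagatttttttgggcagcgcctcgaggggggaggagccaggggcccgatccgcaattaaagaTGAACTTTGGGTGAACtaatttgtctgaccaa
*Cyp26b1*, chr6:84593811-84593910, minus strand: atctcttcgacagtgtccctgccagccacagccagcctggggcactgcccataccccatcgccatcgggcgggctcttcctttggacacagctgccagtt

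The repeat of *Rarb* lay at bases -52 to -37 from the start site and was read on the strand of the gene. That of *Cyp26a1* lay at bases -32 to -17 and was read on the opposite strand. Promoter entries, from 250 bases before to 50 bases after a start site, were found for 8 of the 10 genes, and the repeat was present in those of *Rarb* and *Cyp26a1* and in none of the others. Of 32851 mouse promoters of the same length, 81 (0.247%) held it. The same cores with 3 bases between them (direct repeat 2, in 0.399% of all promoters) or with 2 (direct repeat 1, in 0.402%) did not occur in the promoters of the 8 genes. A single core after A or G, a motif that 43.7% of all promoters hold and that overlaps the repeats, also occurred in the promoters of *Aldh1a1* and *Rarg*. The *Rarb* start site shown lies inside the gene, 507 kb from its upstream end. These matches describe the printed windows and no binding was measured.

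The values below are spot intensities on a log2 scale after background correction and normalization (signals) and ratios of mutant over control within each array, with positive values for a higher level in the mutant. The test was limma's, with the dye as a term and with Benjamini-Hochberg adjustment over the 21042 genes tested. The targeted gene, *Tbx2*, had log2 signals of 14.03 to 14.24 in mutant and 14.16 to 14.37 in control pools and a log2 ratio of -0.12 (adjusted p = 0.124 from limma), below 0 on 4 of 4 arrays, and whether its probe lies in the deleted stretch was not analysed here. For *Sox2* the log2 ratio was 0.012 (adjusted p = 0.935 from limma). *Esr1*, whose hormone-binding part belongs to CreERT2, was well above background in 4 mutant and 0 control pools. Median intensities were 263 to 292 in Cy3 and 496 to 563 in Cy5 over local backgrounds of 25 and of 85 to 95. Pearson's r of the ratios over all genes, taken as a description since genes are no replicates, was 0.679 and 0.616 between arrays of the same dye direction and between -0.10 and 0.071 between arrays with swapped dyes.

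All 10 genes were expressed above background in all 8 pools of cochlear ducts. With the mutant compared with the control, 2 genes fell, the degrading enzyme *Cyp26b1* and the synthesizing enzyme *Aldh1a3*, and 1 rose, the binding protein *Crabp1*. These 3 of 10 genes had a Benjamini-Hochberg adjusted p below 0.05 from limma, beside 5.18% of the 21042 genes tested on the array (2.26% higher and 2.92% lower). None of the 10 also reached a change of 1.5-fold, which 0.442% of all genes did together with the adjusted p. The median log2 ratio was 0.062 over the 10 genes and 0.0024 over all genes tested. An unadjusted p below 0.05 was reached by 5 of the 10 genes and by 20.2% of all genes. In 2 of the 10 genes, *Cyp26b1* and *Rarg*, the signals of the mutant and control pools did not overlap, which was so for 4.28% of all genes. The sign of the ratio was the same on all 4 arrays for 5 of the 10 genes, and for 18.2% of all genes.

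**Figure D1:**
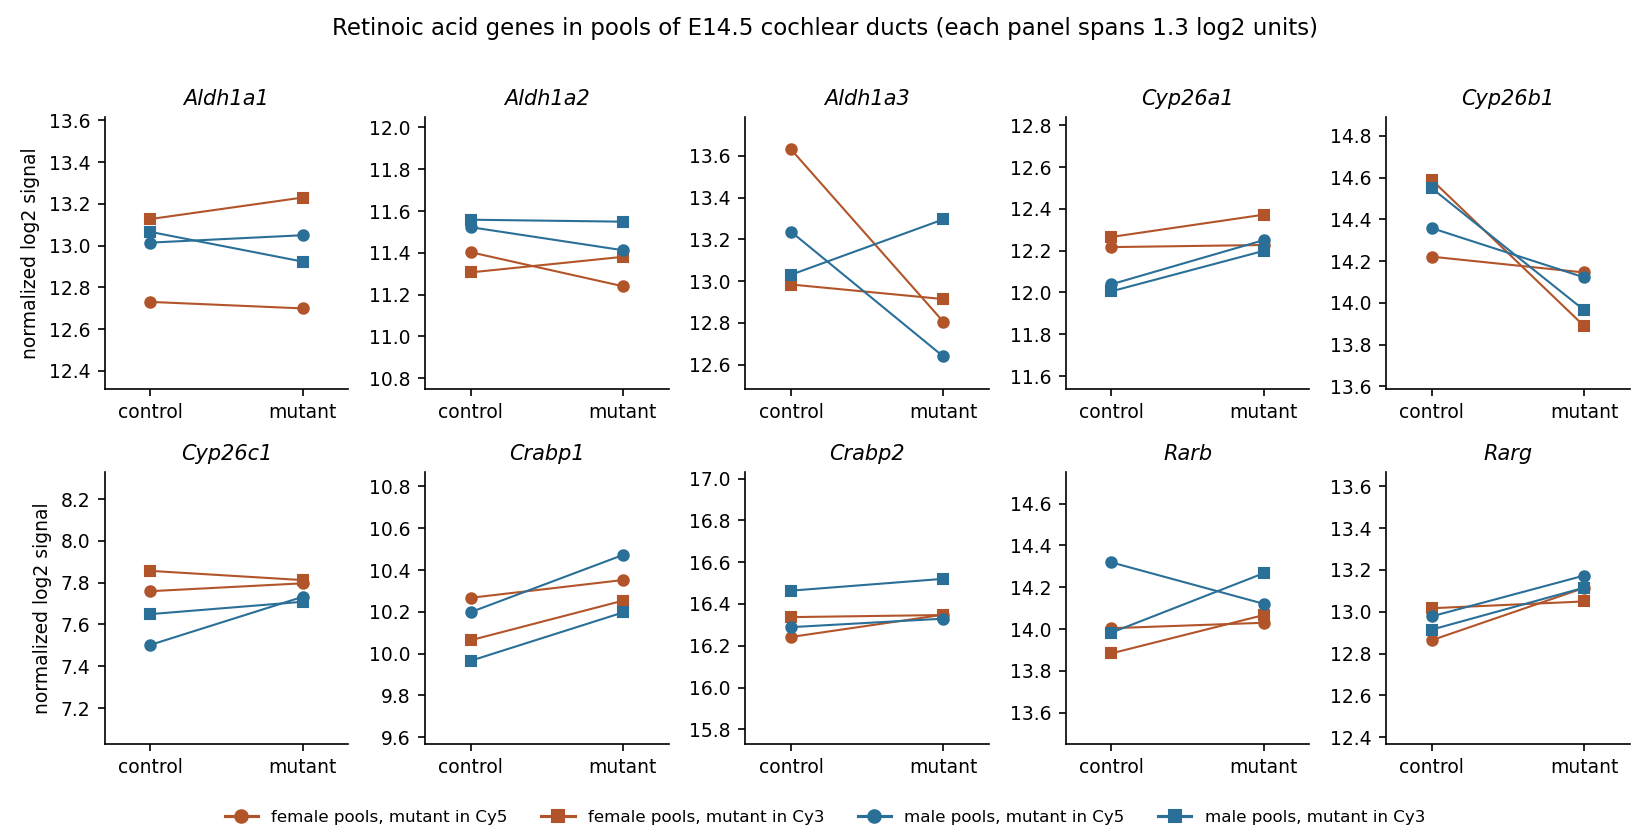
Normalized log2 signal (y axis) of the 10 genes in control and mutant pools (x axis), with the 2 pools of an array joined by a line, colour for the sex and the symbol for the dye of the mutant RNA. All panels span the same height, and the *Cyp26b1* lines all run down while those of *Crabp1*, *Rarg*, *Cyp26a1* and *Crabp2* all run up.

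**Figure D2:**
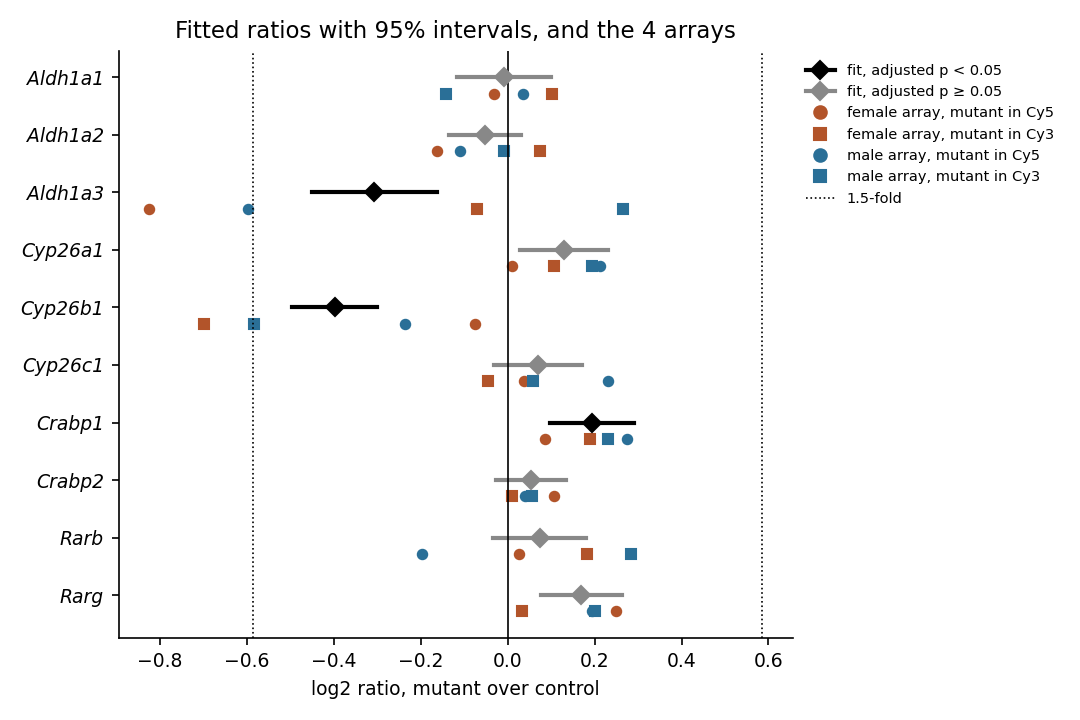
Log2 ratio of mutant over control (x axis) for the 10 genes (y axis), with the limma fit and its 95% interval as a diamond and bar and the 4 arrays as points below it. The fitted ratios lie between -0.40 for *Cyp26b1* and 0.19 for *Crabp1*, and the array points of *Aldh1a3* and *Cyp26b1* split by the dye of the mutant RNA.

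The ALDH1A enzymes carry out the last step of synthesis. *Aldh1a3* (probe on chr7:73535785-73535844 of mm9) had normalized log2 signals of 12.81, 12.91, 12.64 and 13.30 in the mutant pools of arrays 1 to 4. In the control pools of the same arrays its signals were 13.63, 12.98, 13.24 and 13.03. The mutant pool was the lower one on arrays 1, 2 and 3 and the higher one on array 4, and the groups overlapped. The log2 ratios of the 4 arrays were -0.82, -0.070, -0.60 and 0.26, that is -0.31 ± 0.49 (SD, n = 4), with the lower values on the arrays with mutant RNA in Cy5. The probe had a dye effect of -0.40 (Cy5 over Cy3, log2), the largest in size among the 10 genes, whereas the median size over all genes tested was 0.061. With the dye effect taken off, the ratios were -0.42, -0.47, -0.19 and -0.14, all below 0. The dye effect was estimated from these same 4 ratios, so part of their closer agreement is built in. The fitted log2 ratio was -0.31 (limma SE 0.062, 95% interval -0.45 to -0.16, adjusted p = 0.0333), a fall of 1.24-fold. The call did not hold without array 1 (adjusted p = 0.172 from limma), array 2 (0.0509) or array 3 (0.102), and held without array 4 (0.00401). It was also lost with Agilent's processed signals (0.0985), with the authors' value table (0.129), without the dye term (0.632) and with the channels fitted without pairing by array (0.405).

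*Aldh1a1* and *Aldh1a2*, the other synthesizing enzymes of the family, did not pass the test. *Aldh1a2*, the main source of retinoic acid in the early embryo, had a fitted log2 ratio of -0.052 (95% interval -0.13 to 0.031, adjusted p = 0.478 from limma). Its signals lay between 11.24 and 11.55 in mutant pools and between 11.31 and 11.56 in control pools. For *Aldh1a1* the fitted log2 ratio was -0.0087 (95% interval -0.12 to 0.099, adjusted p = 0.944 from limma). Its signals varied more between arrays than between the groups, from 12.70 to 13.23 in mutant and from 12.73 to 13.13 in control pools.

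The CYP26 enzymes clear retinoic acid. *Cyp26b1* (probe on chr6:84521952-84522011 of mm9) had normalized log2 signals of 14.15, 13.89, 14.12 and 13.97 in the mutant pools of arrays 1 to 4, a mean of 14.03 ± 0.12 (SD, n = 4). In the control pools they were 14.22, 14.59, 14.36 and 14.55, a mean of 14.43 ± 0.17 (SD, n = 4). Every mutant pool lay below every control pool. The array ratios were -0.076, -0.70, -0.24 and -0.58 on the log2 scale, that is -0.40 ± 0.29 (SD, n = 4), and the dye effect of this probe was 0.24. With the dye effect taken off they were -0.32, -0.46, -0.48 and -0.34, with an SD of 0.081. This SD is lowered by construction, since the dye effect was estimated from the same 4 ratios. The fitted log2 ratio was -0.40 (limma SE 0.042, 95% interval -0.50 to -0.30, adjusted p = 0.00175), a fall of 1.32-fold, and exceeded the spread of the ratios with the dye effect taken off. The call held with each array left out in turn (adjusted p from 0.00127 to 0.0307 from limma). Of 15 alternative settings it was lost in 1, the fit without a dye term (adjusted p = 0.205).

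*Cyp26a1*, which is both an enzyme of breakdown and a target of the pathway, did not pass the test over all genes. Its ratios were 0.010, 0.11, 0.21 and 0.19 on arrays 1 to 4, above 0 on each. The fitted log2 ratio was 0.13 (95% interval 0.029 to 0.23, unadjusted p = 0.0181 and adjusted p = 0.146 from limma). Its signals overlapped, between 12.20 and 12.37 in mutant pools and between 12.01 and 12.27 in control pools. *Cyp26c1*, the third enzyme of the family, had a fitted log2 ratio of 0.071 (95% interval -0.030 to 0.17, adjusted p = 0.423 from limma), and its signals lay between 7.71 and 7.81 in mutant and between 7.50 and 7.86 in control pools. *Cyp26a1* and *Cyp26c1* are neighbours on chromosome 19. Their probes lie 8.07 kb apart (mm9), with 0 protein-coding genes between these genes in RefSeq. Among the 3 breakdown enzymes, *Cyp26b1* fell and the fitted values of the other two were above 0 without passing, and the difference between the enzymes was not tested.

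The binding proteins carry retinoic acid in the cytoplasm, CRABP2 towards the receptors and CRABP1 by common description towards breakdown. *Crabp1* (probe on chr9:54616192-54616251 of mm9) had normalized log2 signals of 10.35, 10.25, 10.47 and 10.20 in the mutant pools of arrays 1 to 4. In the control pools of the same arrays its signals were 10.27, 10.06, 10.20 and 9.97. On each array the mutant pool was the higher one, but the groups overlapped, with levels that differed between arrays. The array ratios were 0.085, 0.19, 0.27 and 0.23, that is 0.19 ± 0.081 (SD, n = 4), and the dye effect was near 0 (-0.015). The fitted log2 ratio was 0.19 (limma SE 0.041, 95% interval 0.098 to 0.29, adjusted p = 0.0398), a rise of 1.14-fold. Without array 1, 2, 3 or 4 the adjusted p was 0.0598, 0.0594, 0.186 and 0.130, so the call needed all arrays. It was lost as well with Agilent's processed signals (0.0976), the authors' value table (0.129), a smaller offset of 10 in the background correction (0.0534), no dye term (0.178) or the channels fitted without pairing by array (0.593).

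*Crabp2* was higher in the mutant pool on all 4 arrays, by small amounts. Its ratios were 0.11, 0.010, 0.041 and 0.057, and the fit gave 0.053 (95% interval -0.028 to 0.13, adjusted p = 0.453 from limma), which did not pass the test. Its mutant signals were 16.35, 16.35, 16.33 and 16.52 and its control signals 16.24, 16.34, 16.29 and 16.46. Both pools of array 4 gave the highest signals of their group.

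RARG and RARB are the receptors of the group. *Rarg* (probe on chr15:102065371-102065430 of mm9) had normalized log2 signals of 13.11, 13.05, 13.17 and 13.12 in the mutant pools, a mean of 13.11 ± 0.051 (SD, n = 4). The control pools had 12.86, 13.02, 12.98 and 12.91, a mean of 12.94 ± 0.068 (SD, n = 4). Every mutant pool lay above every control pool, the closest being those of array 2. The array ratios were 0.25, 0.032, 0.20 and 0.20, that is 0.17 ± 0.095 (SD, n = 4). The fitted log2 ratio was 0.17 (limma SE 0.040, 95% interval 0.076 to 0.26), a factor of 1.12, and its adjusted p of 0.0574 missed the threshold. With array 1, 2, 3 or 4 left out, the adjusted p was 0.192, 0.0344, 0.196 and 0.281 from limma. Only the fit without array 2 passed, at a log2 ratio of 0.21.

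*Rarb*, the receptor whose promoter holds the repeat shown above, did not pass the test. Its brightest probe had ratios of 0.026, 0.18, -0.20 and 0.28 and a fitted log2 ratio of 0.074 (95% interval -0.033 to 0.18, adjusted p = 0.427 from limma). The other probes of *Rarb* were read in a fit over all probes tested. The probe next to it, on chr14:17264648-17264707 of mm9, had ratios of 0.10, 0.075, 0.18 and 0.25, with a fitted value of 0.15 (adjusted p = 0.100 from limma). The last probe, 388 kb away and assigned to another *Rarb* transcript, was dim, with mean log2 signals of 6.95 in mutant and 6.92 in control pools. Its ratios were 0.16, -0.089, 0.13 and -0.090, with a fitted value of 0.026 (adjusted p = 0.748 from limma). The fitted values of the 3 probes were thus above 0, that of the dim probe with array ratios of both signs, and none passed.

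Of the 7 genes that did not pass, the interval reaching farthest was that of *Rarg*, to 1.20-fold. These intervals hold for the settings of this fit, and the ratios themselves moved with the setting or the arrays left out. That of *Cyp26c1* lay between 0.023 (without array 3) and 0.13 (with the authors' value table), with 0.12 without array 1 and with Agilent's processed signals, and did not pass in any of the 15 alternatives. With 4 arrays, the precision of all these values is limited. The spots of a probe were close to each other, with an SD within an array from 0.0041 to 0.10 on the log2 scale for the probes that stand for the 10 genes.

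Female and male pools were compared through the dye-swapped pair of arrays of each sex, whose mean is free of the dye effect. *Cyp26b1* had nearly the same mean log2 ratio in both, -0.39 in female and -0.41 in male pools, with a difference of male minus female of -0.022 (95% interval -0.23 to 0.19). *Crabp1* had 0.14 in female and 0.25 in male pools, a difference of 0.12 (95% interval -0.078 to 0.31). *Aldh1a3* had -0.45 in female and -0.17 in male pools. This difference, 0.28 (95% interval 0.091 to 0.47), had an unadjusted p of 0.00842 but an adjusted p of 1.00 over all genes in limma's test of the interaction. It was the 1 difference of the 10 genes with an unadjusted p below 0.05, a level reached by 558 (2.65%) of all genes tested, and 0 of the 21042 genes passed after adjustment (0.00%). With 2 arrays per sex, differences between the sexes were estimated less precisely than the ratios themselves.

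**Figure D3:**
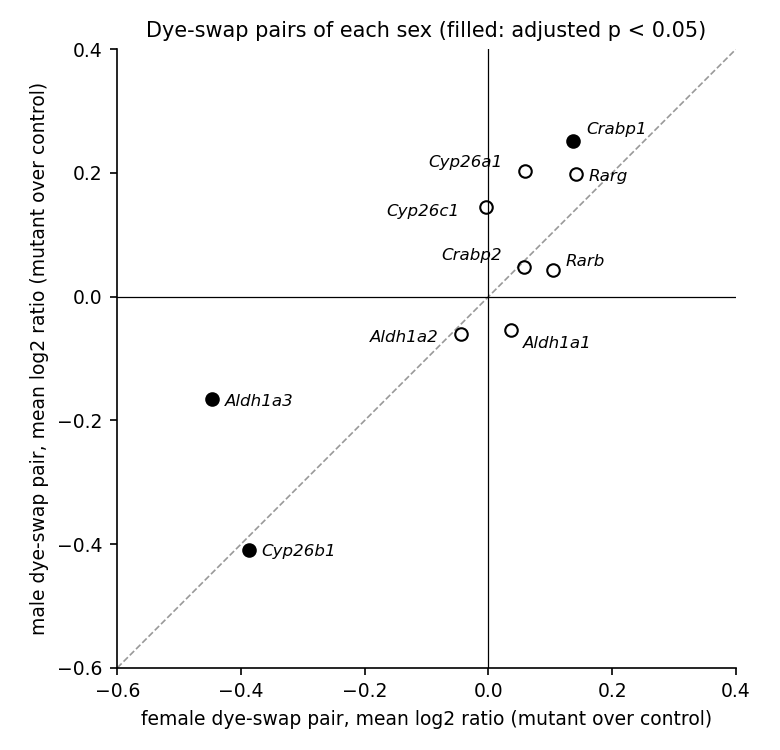
Mean log2 ratio of mutant over control in the female dye-swap pair (x axis) and in the male pair (y axis) for the 10 genes, with filled symbols for an adjusted p below 0.05 over all arrays and a dashed line of equal values. *Cyp26b1* lies on the line at -0.39 and -0.41, and *Aldh1a3* lies above it at -0.45 and -0.17.

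The rest of the pathway was read from a list of 31 further genes that supply, carry or store retinol, turn it into retinaldehyde, or bind and assist the receptors. Of these, 28 were tested, 1 was higher, 1 was lower and 26 did not pass, so that the share past the threshold was near that of all genes. *Adh7*, *Rbp2* and *Bco1* were not sufficiently above background. *Rxrg*, a partner of the retinoic acid receptors, was higher with a fitted log2 ratio of 0.25 (limma SE 0.041, adjusted p = 0.0166). Its array ratios were -0.072, 0.47, 0.11 and 0.47, higher on the arrays with mutant RNA in Cy3. Another *Rxrg* probe gave 0.13 and did not pass in a fit over all probes tested (adjusted p = 0.104 from limma). Without array 3 *Rxrg* did not pass (0.20, adjusted p = 0.0904 from limma). *Ttr*, the blood carrier of thyroid hormone and of the retinol-binding protein, was lower on 4 of 4 arrays with a log2 ratio of -0.28 (limma SE 0.038, adjusted p = 0.00611), and also missed the threshold without array 3 (-0.26, adjusted p = 0.0613 from limma).

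The remaining receptors and the enzymes that make and reduce retinaldehyde did not pass. *Rara*, the third receptor, had a log2 ratio of 0.044 (adjusted p = 0.601 from limma), and the partners *Rxra* and *Rxrb* had -0.024 and 0.051 (adjusted p = 0.757 and 0.489 from limma). *Rdh10*, the main dehydrogenase from retinol to retinaldehyde in the embryo, had 0.079, and *Rdh11*, a retinal reductase, had 0.031 (adjusted p = 0.324 and 0.684 from limma). *Dhrs3*, which turns retinaldehyde back to retinol, had 0.15, above 0 on 4 of 4 arrays, with an adjusted p of 0.0559 that missed the threshold in limma's test. The median log2 ratio over the 28 genes was -0.024.

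A list of 23 genes that respond to retinoic acid in one embryonic tissue or another was examined as well, of which 16 were tested. In limma's test 0 of them were higher, 4 were lower and 12 did not pass, where 2.26% of all genes tested were higher and 2.92% lower. The list does not record whether retinoic acid raises or lowers each gene, so these counts give no direction of the pathway's activity. An unadjusted p below 0.05 was reached by 8 of the 16 genes and by 20.2% of all genes, and the median log2 ratio of the list was -0.027. The lower genes were *Fgf8*, a growth factor (-0.93, limma SE 0.073, adjusted p = 0.000405), *Ccnd1*, a cyclin of the G1 phase (-0.33, adjusted p = 0.0103), *Rarres1*, named for its response to retinoids (-0.27, adjusted p = 0.0206), and *Dusp6*, a phosphatase that dampens ERK signalling (-0.21, adjusted p = 0.0202). *Fgf8* was the 1 gene of the list to pass with a change of 1.5-fold, and the study singled it out from these arrays, so that its fall is no independent evidence. Its probe was dim, with a mean log2 signal of 7.81 in mutant pools, and the *Fgf8* ratio moved between -1.24 and -0.76 over the settings with all arrays. Another *Fgf8* probe gave -0.60 and was above background in 1 of 4 mutant pools. *Fgf8*, *Dusp6* and *Ccnd1* also answer to signals other than retinoic acid. Without array 1, *Fgf8* alone of the 4 passed, and *Ccnd1*, *Rarres1* and *Dusp6* had adjusted p of 0.0888, 0.108 and 0.108. Without array 3 these were 0.102, 0.158 and 0.0695, and *Egr1*, named after its values were seen, passed beside *Fgf8*. Without array 4 *Rarres1* and *Dusp6* had 0.0574 and 0.0815, all from limma.

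Several of the response genes that did not pass had small ratios. *Hoxb4* and *Hoxd4*, homeobox genes with retinoic acid response elements, had log2 ratios of 0.044 and 0.054 (adjusted p = 0.533 and 0.713 from limma). *Cdx1*, a caudal-type homeobox gene, had 0.024 and *Nrip1*, a nuclear receptor corepressor, had 0.063 (adjusted p = 0.752 and 0.395 from limma). *Tgm2*, which encodes transglutaminase, had 0.12, above 0 on 4 of 4 arrays (adjusted p = 0.100 from limma). *Hoxb1*, *Hoxa4*, *Hoxa5*, *Hoxb5*, *Stra8* and *Tbx5* were among those not sufficiently above background to be tested.

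**Figure D4:**
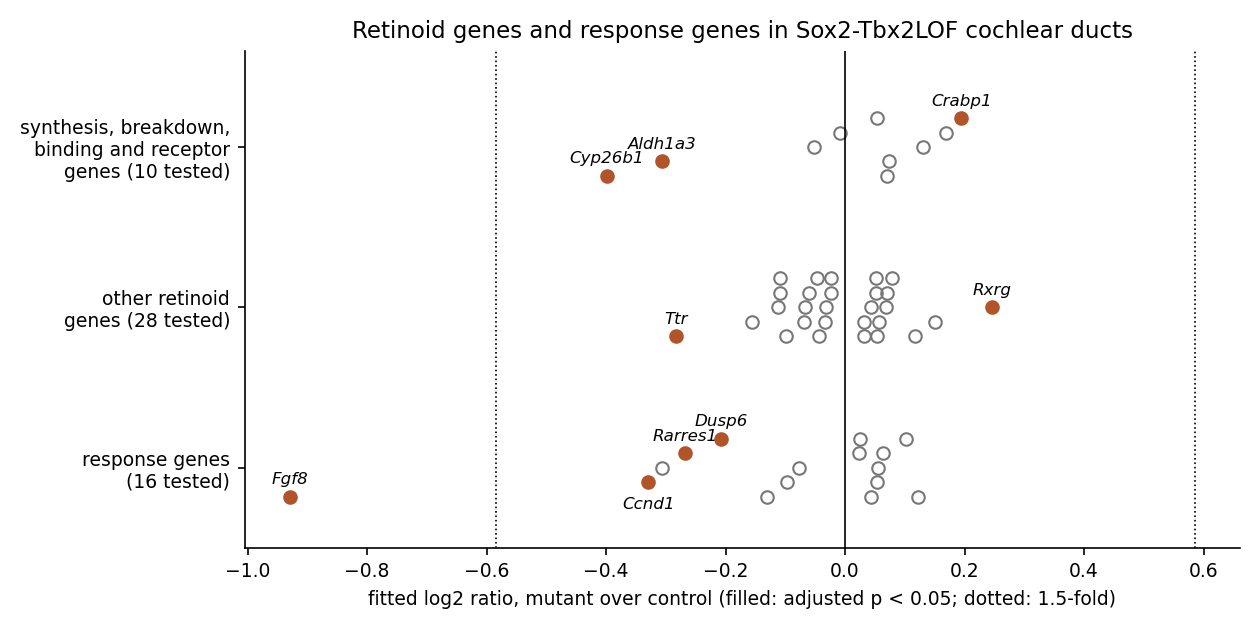
Fitted log2 ratio of mutant over control (x axis) of every tested gene of the 3 lists (y axis), 10 synthesis, breakdown, binding and receptor genes, 28 other retinoid genes and 16 response genes, with filled symbols for an adjusted p below 0.05. Points are spread vertically for legibility, and *Fgf8* at -0.93 is the 1 gene beyond the dotted 1.5-fold lines.

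Markers of cell types of the duct and its surroundings were read in the same pools, and their counts stand beside 2.26% higher and 2.92% lower genes over the whole array. Of 11 neuronal markers tested, 7 were lower and 2 higher, with a median log2 ratio of -0.36 and *Neurod1* not sufficiently above background, and of 8 markers of glia and Schwann cell precursors 4 were lower and 1 higher. The signals of the neuronal markers summed to between 53949 and 60839 in mutant and between 55390 and 58210 in control pools. This sum is mostly *Isl1* (53.4% in mutant and 46.7% in control pools) and *Snap25* (26.2% and 26.9%), so it says little of the 7 markers that fell. The glial markers summed to between 171342 and 198830 in mutant and between 176615 and 206187 in control pools. Of 12 markers of the cochlear epithelium, the labelled tissue, 2 were higher and 1 lower, all were above background in all pools, and their signals summed to between 527888 and 573414 in mutant and between 490146 and 531854 in control pools. *Isl1* stands in the neuronal and the epithelial list and was higher. Of 12 markers of periotic mesenchyme, 1 was higher and 1 lower, and their signals summed to between 417602 and 433925 in mutant and between 375301 and 408636 in control pools. For both lists the lower and the upper end of the sums were higher in the mutant. The ranges did not overlap for the mesenchymal markers and overlapped in part for the epithelial ones. Such sums weigh bright markers most, such as *Lum* with mean log2 signals of 16.88 in mutant and 16.76 in control pools. How often sums over other sets of genes fail to overlap was not computed. Melanocyte markers (0 higher and 1 lower of 7), endothelial (1 and 0 of 6), blood (0 and 0 of 5, with an unadjusted p below 0.05 for 3), macrophage (0 and 0 of 6, with none at that level) and hair cell markers (1 and 0 of 5) were also all above background in all pools. The part of these differences in the values of *Cyp26b1*, *Aldh1a3* and *Crabp1* was not tested.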

How the data were processed

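The authors hybridised pooled RNA from E14.5 cochlear ducts in 2 colours and deposited 1 Agilent Feature Extraction 10.7.3.1 file per array. The deposited intensities used were each spot's mean signal and median local background, not normalized, and as an alternative the processed intensity, background-subtracted and dye-normalized. A value table that the authors also deposited holds a score per probe, the fold change with a minus sign for lower in the mutant, whose normalization is not given in the sources used here. The file header names mm9 and a custom design holding each probe in 4 spots, not the catalogue array of the methods. Gene names and positions are those of the files.

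Background correction was by normexp in limma (offset 50), which draws the ratios of dim probes towards 0. Log2 ratios were normalized by loess within arrays, with control and outlier-flagged spots given no weight, and spots without a flag were averaged per probe. Signals per pool came from Aquantile scaling between arrays. A probe was above background on a channel if at least 50% of its spots were, and was tested if it was so in 4 of 8 channel measurements. The brightest tested probe stood for a gene. The fit (limma 3.58.1, R 4.3.3) had a genotype and a dye term, 2 residual degrees of freedom and a prior of 5.65, with Benjamini-Hochberg adjustment over 21042 genes. The array pairs a mutant with a control pool. SAM, the test of the methods, was represented by an unpaired limma fit of the channels. All arrays were on 1 slide and in 1 scan. In data simulated with normal noise of the fitted spreads, 100% of 200 genes changed by log2 values of 0.4 or 0.8 were recovered. The noise was drawn from the model that was then fitted, so this does not show that every real change of 0.4 would pass. Smaller changes, such as the fitted ratios of the genes that did not pass, were not simulated. The genes, lists and tests were chosen with earlier results of these data known. Genes named from lists were all that passed and the first 6 that did not, and some list genes are not reported here by name. The alternatives were other signals, offset, centring, filters, dye term, pairing, sex term, probes and arrays.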

Additional observations from a re-analysis of the deposited data

Results flagged for a closer look

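The log2 signals of each gene's standing probe, and of the other probes of *Rarb*, were examined for a pool that stood apart from the other 3 of its group, together with the array ratios. Of 36 such sets of 4 values, 1 was flagged, and chance flags about 1 set in 20. In the mutant pools *Crabp2* had 16.52 on array 4 and 16.33 to 16.35 on the other arrays, so that the gap of the highest value to the next was 0.901 of the whole range. The control pool of array 4 was also the highest of its group, at 16.46, and the *Crabp2* ratio of that array, 0.057, lay within the range of the others.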

How the results depend on the processing

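Across the alternatives run, *Cyp26b1* stayed below 0 and passed in 14 of 15, *Aldh1a3* passed in 8, *Crabp1* in 6 and *Rarg* in 2, each with its direction kept. The 3 passing genes of synthesis, breakdown, binding and sensing became 1 with Agilent's processed signals, with the authors' value table and with separate channels and no replicate block, 0 without a dye term, and 1 to 2 when an array was left out. The 2 other retinoid genes became 1 with processed signals, without a dye term and with the authors' table, 0 without a replicate block and 0 to 2 with an array left out. The 4 response genes became 2 with processed signals, 1 without a dye term, without a replicate block and with the authors' table, and 1 to 4 with an array left out. The 21 marker genes became 13 with processed signals and 13 to 24 with an array left out. Over all genes, 1091 passed, 616 with processed signals, 264 without a dye term, 414 with the authors' table, 217 without and 1091 with the array as replicate block, so the pairing by array moved these counts, and 411 to 1278 with an array left out (fewest without array 1, 445 without array 3). *Aldh1a1* changed sign, to 0.0079 without array 1 and 0.053 without array 4, with a range of -0.070 to 0.053 over the arrays left out. The cause of these shifts was not tested. The median ratio of the 10 genes stayed between 0.026 and 0.081. With 4 arrays and whole ducts, fold changes near 1.1 lie at the edge of what the test can call.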
